A study of Mus musculus with 4 samples.

Results

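Cytochrome P450 genes were taken as the array's genes whose symbol is Cyp followed by a family number, a subfamily letter and a gene number, so that Cyp51 was left out, and the probe of a gene with the brightest mean over the arrays was used for it. The rule found 88 of the 34797 genes and other named features of the array, and the 39 that the scanning software marked as well above background on 1 or more arrays are described here. Of these, 31 were well above background on all 4 arrays, 2 on 2 arrays and 6 on 1 array, while 49 were on none. The share on all 4 arrays was 35.2% for the P450 genes and 52.5% for all genes, and the share on none was 55.7% and 37.9%. The RNA was from 3T3-L1, an established line of mouse preadipocytes that become fat cells in culture. After differentiation the cells received, for 7 days, daidzein together with pig testis extract (PT), daidzein alone (25 uM), PT alone (100 ug/ml), or PBS as the control; the labels state no separate doses for the combination. Daidzein is a soy isoflavone, and the title of the series concerns the extract and adiponectin, a hormone of fat cells. Each group was read on 1 single-colour (Cy3) array.

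Cytochrome P450 enzymes hold a heme whose iron binds oxygen, and they insert an oxygen atom into steroids, fatty acids, vitamins, drugs and other small molecules. Most sit in the endoplasmic reticulum and take electrons from the reductase Por, and a few sit in mitochondria and take them from ferredoxin. The liver makes the largest set of them. In adipose tissue and its precursor cells, P450 enzymes are known for the oxidation of steroids, retinoic acid and fatty acids.

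The sequences below are the first 30 of the 60 bases of the probes on which the results turn, shown because the values are those of these stretches of RNA; for Cyp2u1 bases 9 to 38 are shown, with the part of a GT repeat that falls in this window in capitals. Positions are those of the scanner files on mouse build mm9, and the exon or UTR in which a probe lies was not looked up.
Cyp2e1, probe used, chr7:147960628-147960687: ttcctcgttcatgagacctgctgcccatca
Cyp2e1, second probe, chr7:147956922-147956981: accaccagcacaactctgagatatgggctc
Cyp2f2, chr7:27918570-27918629: aatgacgtgacaaaggtgaaatacccgtct
Cyp4b1, chr4:115297406-115297465: ctgtcttgagaaacttcatttatttctcat
Cyp2c70, chr19:40227969-40228028: cttcttctgtgagcaaaaaggtcctcctgt
Cyp2c38, chr19:39465415-39465474: aatggattaattgctctgccaccccattac
Cyp3a59, chr5:146924485-146924544: gagactgtgtcacagaacaccagagaattt
Cyp2u1, probe used, chr3:130996343-130996402: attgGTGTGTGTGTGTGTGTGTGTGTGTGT

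Levels are given as relative signal, the probe's background-subtracted signal divided by the 75th percentile of its array, and they compare arrays for 1 probe, not 1 gene with another. Between 49.7% and 51.4% of the spots of an array were well above background, and no spot was saturated. Each group had 1 array and no replicate, and no test between treatments was run. Each treatment was however read in 2 pairs of arrays that share no array, daidzein over PBS and daidzein+PT over PT for daidzein, and PT over PBS and daidzein+PT over daidzein for PT. The disagreement of the 2 pairs over all genes corresponds to an SD for a log2 difference of 2 arrays of 0.33, 0.14 and 0.11 in the dim, middle and bright classes, made by splitting 18256 genes by mean signal into 3 classes of equal size. This SD is taken over all genes of a class and does not measure the spread between replicate cultures. Of the 31 P450 genes read on all 4 arrays, 13 were in the dim class, 14 in the middle and 4 in the bright class. The 2 PT arrays lay in row 2 of the slide and the other two in row 1, so PT and slide row cannot be told apart. Adipocyte markers differed between the arrays as well: the summed relative signal of 9 of them was 993 with daidzein+PT, 605 with daidzein, 224 with PT and 106 with PBS, with 8 of the 9 well above background on each array and Lep on none. Summed signal of 8 preadipocyte or fibroblast markers was 700, 664, 835 and 842 on the same arrays. Most of it came from Dlk1 (425, 410, 538 and 551) and Col1a1 (191, 168, 184 and 175), as bright probes weigh most in a sum. The median log2 difference of the 8 from PBS was -0.39 with daidzein+PT, -0.33 with daidzein and -0.03 with PT. In such bulk RNA a larger share of adipocytes and more RNA per adipocyte cannot be told apart, and the part of either in the P450 differences was not tested.

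**Figure D1:**
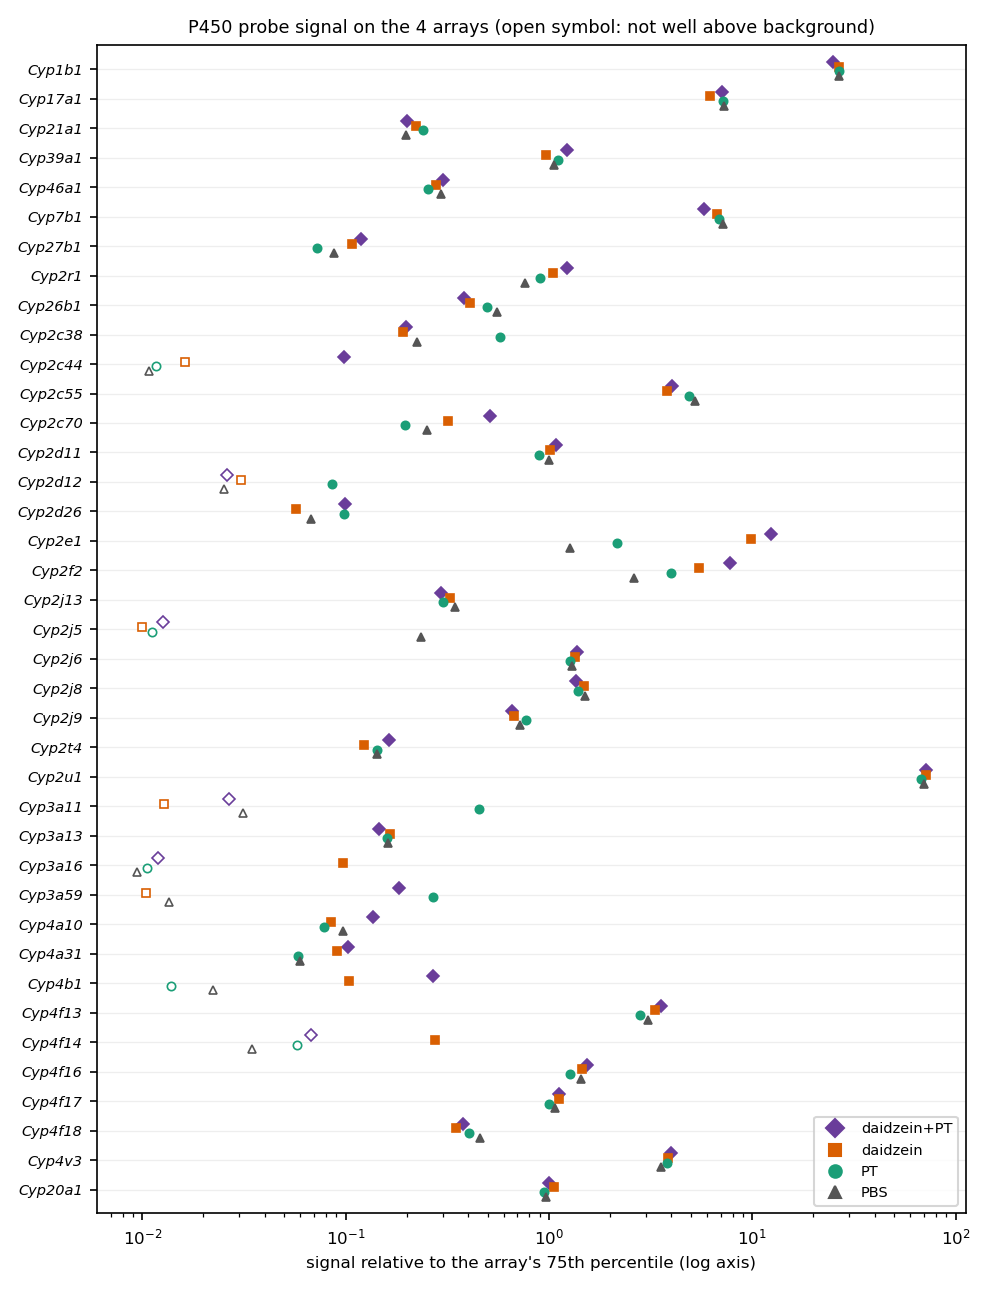
Signal of the probe of each of the 39 P450 genes relative to the 75th percentile of its array (log axis), with 1 symbol per array and open symbols where the probe was not well above background. Along most rows without open symbols the 4 symbols nearly coincide, while rows with open symbols spread more widely. Cyp2e1, Cyp2f2 and Cyp4b1 stand out by daidzein+PT and daidzein symbols to the right of PT and PBS, which are open for Cyp4b1. Rows are ordered by role and are not to be compared with each other.

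Cyp2e1, which oxidises ethanol, acetone and other small molecules and is best known from liver, differed more than any other P450 gene read on all 4 arrays. Its relative signal was 12.4 with daidzein+PT, 9.91 with daidzein, 2.16 with PT and 1.28 with PBS. Both daidzein arrays were thus high, and PT lay between them and PBS. Daidzein over PBS was 7.76-fold (log2 2.96) and daidzein+PT over PT was 5.75-fold (log2 2.52), beside an SD of 0.14 over all genes of its class. PT over PBS was 1.69-fold (log2 0.76) and daidzein+PT over daidzein 1.25-fold (log2 0.32), an interaction (difference between the 2 pairs) of -0.43. Whether daidzein changed the PT difference was not tested, and slide row differed along with PT. The second Cyp2e1 probe has its own target, and it read 3.37 with daidzein+PT, 2.84 with daidzein, 0.632 with PT and 0.378 with PBS. Its log2 differences were 2.91 for daidzein over PBS and 2.42 for daidzein+PT over PT, each within the SD of 0.14 of that of the first probe. The summed relative signal of 8 hepatocyte markers was 0.318 with daidzein+PT, 0.328 with daidzein, 0.439 with PT and 0.266 with PBS. Of these 8, 5 were well above background on none of the arrays, among them Apoa1 and Ttr. Albumin (Alb) was well above background only with PT (relative signal 0.147), and Apoh and Tat were so on all 4 arrays at relative signals of at most 0.128. Apoh was at a log2 difference of 1.02 for daidzein over PBS and 0.90 for daidzein+PT over PBS, and Tat was at 0.21 and 0.13.

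Cyp2f2, known from the club cells of the lung for its oxidation of naphthalene, showed the same order of the arrays. Relative signal was 7.76 with daidzein+PT, 5.49 with daidzein, 3.97 with PT and 2.62 with PBS. It was higher in both pairs of each treatment: daidzein over PBS was 2.09-fold (log2 1.07), daidzein+PT over PT 1.95-fold (log2 0.97), PT over PBS 1.51-fold (log2 0.60) and daidzein+PT over daidzein 1.41-fold (log2 0.50). All 4 log2 differences were over 3 times the SD of 0.14 of all genes of its class, which is not a spread between replicates. The interaction was -0.10. The array holds 1 probe for this gene.

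Cyp4b1, a fatty acid hydroxylase that also activates the plant toxin 4-ipomeanol, was well above background on the 2 daidzein arrays and on no other. Its relative signal was 0.268 with daidzein+PT and 0.104 with daidzein, against 0.0139 with PT and 0.0223 with PBS, both not well above background. Where 1 array has no usable signal, the difference is a bound, computed against the dimmest probe that was well above background on that array or against the probe's own signal, whichever is brighter. By this rule Cyp4b1 was at least 2.29-fold higher with daidzein than with PBS, and at least 5.29-fold higher with daidzein+PT than with PT. The sizes of the bounds were not computed with other processing. Between the 2 daidzein arrays Cyp4b1 was 2.57-fold higher with daidzein+PT (log2 1.36), which became a log2 difference of 0.73 with normexp background correction. Normexp adds an offset of 50 to every signal, which shrinks the log2 differences of dim probes whatever the RNA did. This holds for each normexp value of a dim gene below. The pattern of detection on both daidzein arrays only was shared by 104 genes, 0.299% of all genes, and Cyp4b1 was the 1 P450 gene among them.

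**Figure D2:**
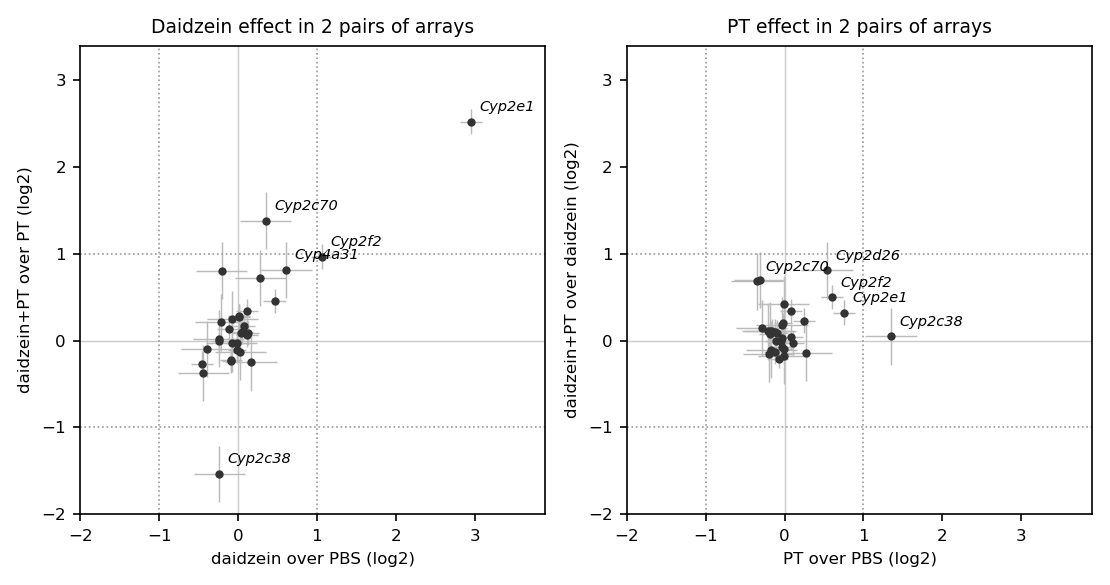
Log2 differences of the 31 P450 genes read on all 4 arrays in the 2 pairs that measure daidzein (left) and the 2 that measure PT (right), with the SD of a difference of 2 arrays for the gene's signal class as bars and dotted lines at 2-fold. In the left panel Cyp2e1 lies beyond 2-fold on both axes (2.96 and 2.52) and Cyp2f2 next to the lines (1.07 and 0.97); in the right panel no gene lies beyond 2-fold on both axes.

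Counted over the family, daidzein over PBS placed 2 of 31 genes at 2-fold or more higher, Cyp2e1 and Cyp2f2, against 1.1% of all 18914 genes compared, and 0 of 31 at 2-fold or more lower, against 0.37%. With PT present (daidzein+PT over PT) 2 of 32 were at 2-fold or more higher, Cyp2e1 and Cyp2c70, against 2.1% of all genes, and 1, Cyp2c38, was at 2-fold or more lower, against 0.853%. Cyp2e1 alone was at 2-fold or more higher in both daidzein pairs, against 0.893% of all genes, and no P450 gene was at 2-fold or more lower in both, against 0.164%. At 1.4-fold or more, Cyp2e1, Cyp2f2 and Cyp4a31 were higher in both daidzein pairs (3 of 31, against 2.56% of all genes), and 0 were lower in both, against 1.61%. Cyp4a31, a dim gene, lost this call with normexp and its offset, at 0.11 for daidzein over PBS and 0.34 for daidzein+PT over PT. With the mean over its probes it was at 0.21 and 0.40, but its other probes were not well above background on any array. The next gene below the 2-fold limit of daidzein over PBS was Cyp4a31 at a log2 difference of 0.61, after Cyp2f2 at 1.07 inside it. The median over the 31 genes was 0.01 for daidzein over PBS and 0.09 for daidzein+PT over PT, beside -0.03 and -0.01 over all genes read on all 4 arrays.

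PT over PBS placed 1 of 31 genes at 2-fold or more higher, Cyp2c38, against 0.877% of all genes, and 0 lower, against 0.0638%. With daidzein present (daidzein+PT over daidzein) 1 of 32 was at 2-fold or more higher, Cyp4b1, against 1.09%, and 0 lower, against 0.102%. No P450 gene was at 2-fold or more higher in both PT pairs, against 0.159% of all genes, and none at 2-fold or more lower, against 0.00548%. At 1.4-fold or more, Cyp2d26 and Cyp2f2 were higher in both (2 of 31, against 1.02%), and 0 were lower in both, against 0.126%. Neither kept this call with normexp background correction or in the deposited series table: for daidzein+PT over daidzein Cyp2f2 was then at 0.47 and 0.48, just under the limit. Cyp2d26, a CYP2D enzyme read near background, had a relative signal of 0.0998 with daidzein+PT, 0.057 with daidzein, 0.0982 with PT and 0.0676 with PBS, so both PT arrays were the higher. Its log2 differences of 0.54 for PT over PBS and 0.81 for daidzein+PT over daidzein compare with an SD of 0.33, and with normexp they were 0.12 and 0.37. With quantile normalization Cyp2d26 was at 0.30 for PT over PBS, also under 1.4-fold. The family medians were -0.03 for PT over PBS and 0.09 for daidzein+PT over daidzein, beside -0.02 and 0.01 over all genes.

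Daidzein+PT over PBS placed 3 of 31 genes at 2-fold or more higher, against 2.52% of all genes, and 0 lower, against 0.547%. Cyp2e1 was 9.71-fold higher (log2 3.28), Cyp2f2 2.96-fold higher (log2 1.56) and Cyp2c70 2.05-fold higher (log2 1.03). Of the 31 genes, 24 differed by less than 0.5 on the log2 scale in this comparison, against 88.1% of all genes. For daidzein over PBS 28 of 31 did so, against 92.6%, and for PT over PBS 27 of 31, against 95.8%. The daidzein+PT over PBS median was 0.06 for the family and -0.03 for all genes. The 3 comparisons with PBS share that array, so they are not separate measurements of it.

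Cyp2c70, which in mice makes the muricholic bile acids, was highest on the daidzein+PT array. Its relative signal was 0.512 with daidzein+PT, 0.319 with daidzein, 0.196 with PT and 0.25 with PBS. It was 2.61-fold higher with daidzein+PT than with PT (log2 1.38), but daidzein over PBS was 0.35, about the SD of 0.33 of its dim class. PT pointed in opposite directions in its 2 pairs, with -0.35 for PT over PBS and 0.68 for daidzein+PT over daidzein. With normexp the difference to PT was 0.95 and that to PBS 0.67, and with quantile normalization the difference to PBS was 0.99, each under 2-fold.

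Cyp2c38, an arachidonic acid oxidising member of the CYP2C subfamily, was high on the PT array alone. Its relative signal was 0.198 with daidzein+PT, 0.191 with daidzein, 0.574 with PT and 0.226 with PBS. PT over PBS was 2.55-fold (log2 1.35), while daidzein+PT over daidzein was 0.05, and daidzein+PT over PT was -1.54. The second probe of the gene was not well above background on any array, with relative signals from 0.0108 to 0.0177. With normexp PT over PBS was 0.87 and daidzein+PT over PT -0.95, and with the mean over both probes they were 0.76 and -0.69.

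Cyp3a59, of the drug and steroid oxidising CYP3A subfamily, was well above background on the 2 PT arrays and on no other. It read 0.183 with daidzein+PT and 0.269 with PT, against 0.0105 with daidzein and 0.0136 with PBS, both not well above background. It was at least 5.90-fold higher with PT than with PBS, and at least 4.02-fold higher with daidzein+PT than with PBS. The bound for daidzein+PT over daidzein was above 2-fold as well. The second probe of the gene was not well above background on any array (0.0221 with daidzein+PT, 0.00981 with daidzein, 0.0111 with PT and 0.00991 with PBS). Detection on both PT arrays only was found for 95 genes, 0.273% of all genes.

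Another 6 P450 genes were well above background on 1 array each. Cyp3a11 read 0.456 with PT, against 0.0266 with daidzein+PT, 0.0127 with daidzein and 0.0313 with PBS, and its second probe was not well above background on any array. Cyp4f14 read 0.276 with daidzein and at most 0.0674 on the other arrays, and Cyp3a16 read 0.0976 with daidzein and at most 0.0119 elsewhere. Cyp2d12 was detected with PT (0.0859). Cyp2c44, named Cyp2c23 under its accession in RefSeq, was detected with daidzein+PT (0.0981). Cyp2j5 was detected with PBS (0.236), where the treated arrays read from 0.00992 to 0.0127. These 6 make up 6.82% of the 88 P450 genes, and 5.86% of all genes were likewise detected on a single array. A bound of 2-fold or more was reached in daidzein over PBS by 3 of 3 P450 genes detected with daidzein and not with PBS, against 22.4% of 782 genes detected on that array of the pair alone, and in PT over PBS by 2 of 3 detected with PT and not with PBS, against 47.2% of 1021. In daidzein+PT over PBS 3 of 3 reached it, against 62.8%, in daidzein+PT over PT 1 of 2, against 54.1%, and in daidzein+PT over daidzein 2 of 2, against 63.1%. Downwards, Cyp2j5 was the 1 gene detected with PBS and not with the other array, and it reached the bound in daidzein over PBS (13.8% of all such genes), PT over PBS (7.96%) and daidzein+PT over PBS (7.52%). Cyp3a11 reached it as lower in daidzein+PT over PT (1 of 2, against 29.4%) and Cyp4f14 in daidzein+PT over daidzein (1 of 2, against 8.43%).

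Cyp2u1, a hydroxylase of long-chain fatty acids, gave the brightest probe of the family, and its sequence sets it apart. The relative signal was 71.3 with daidzein+PT, 71.7 with daidzein, 67.3 with PT and 69.7 with PBS, with log2 differences between -0.05 and 0.08. The probe was designed on a cDNA clone and holds a GT repeat of 32 bases, of which 26 are printed above in capitals. The other 2 probes of the gene hold no repeat over 4 bases. One read 0.158 with daidzein+PT, 0.143 with daidzein, 0.141 with PT and 0.135 with PBS, and the probe on the RefSeq mRNA was not well above background on any array (0.0468, 0.0309, 0.019 and 0.0468). The repeat probe was 486 times as bright as the brighter of these, a ratio between probes, which need not bind their targets alike. On the whole array, the 24 other probes with a GT repeat of 30 bases or more had relative signals from 26.5 to 113, with a median of 51.6, whereas the median of all other probes was 0.0491. All 24 exceeded 10, against 9.39% of all probes. How far the signal of the repeat probe reports Cyp2u1 RNA was not tested.

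**Figure D3:**
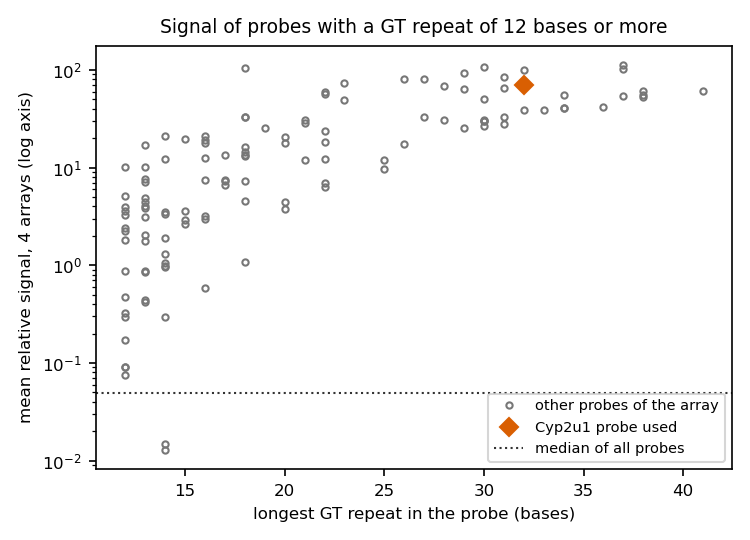
Mean relative signal over the 4 arrays (log axis) of every probe with a GT repeat of 12 bases or more, against the length of the repeat, with the Cyp2u1 probe as a diamond and the median of all probes (0.0491) as a dotted line. Probes with a repeat of 30 bases or more all lie above 26, and the Cyp2u1 probe lies among them.

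The probes of a gene differed in other cases too. Of the 39 genes, 24 had 1 probe and 15 had 2 or more, and for 5 genes (Cyp20a1, Cyp2e1, Cyp2j6, Cyp2u1 and Cyp4f18) at least 2 probes were well above background on all 4 arrays. The 2 probes of Cyp4f18 lie 1 base apart with overlapping sequences that are not identical, and gave log2 differences of -0.28 and -0.33 for daidzein+PT over PBS and of -0.40 and -0.10 for daidzein over PBS. Cyp4a10 and Cyp4a31, both on chromosome 4 and both coding for enzymes that hydroxylate fatty acids at the chain end, have probes with 34 bases in common, so their signals may hold RNA of each other. Cyp4a31 read 0.103 with daidzein+PT, 0.0909 with daidzein, 0.0583 with PT and 0.0597 with PBS, and Cyp4a10 read 0.137, 0.0845, 0.0782 and 0.0975. Both were in the dim class, and the log2 differences of 0.81 of each for daidzein+PT over PT compare with an SD of 0.33. With normexp, whose offset shrinks dim differences, they were 0.41 for Cyp4a10 and 0.34 for Cyp4a31. With the mean over probes they were -0.19 and 0.40. That mean takes in probes near background. The other Cyp4a31 probes were not well above background on any array, and those of Cyp4a10 on 1 array at most.

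**Figure D4:**
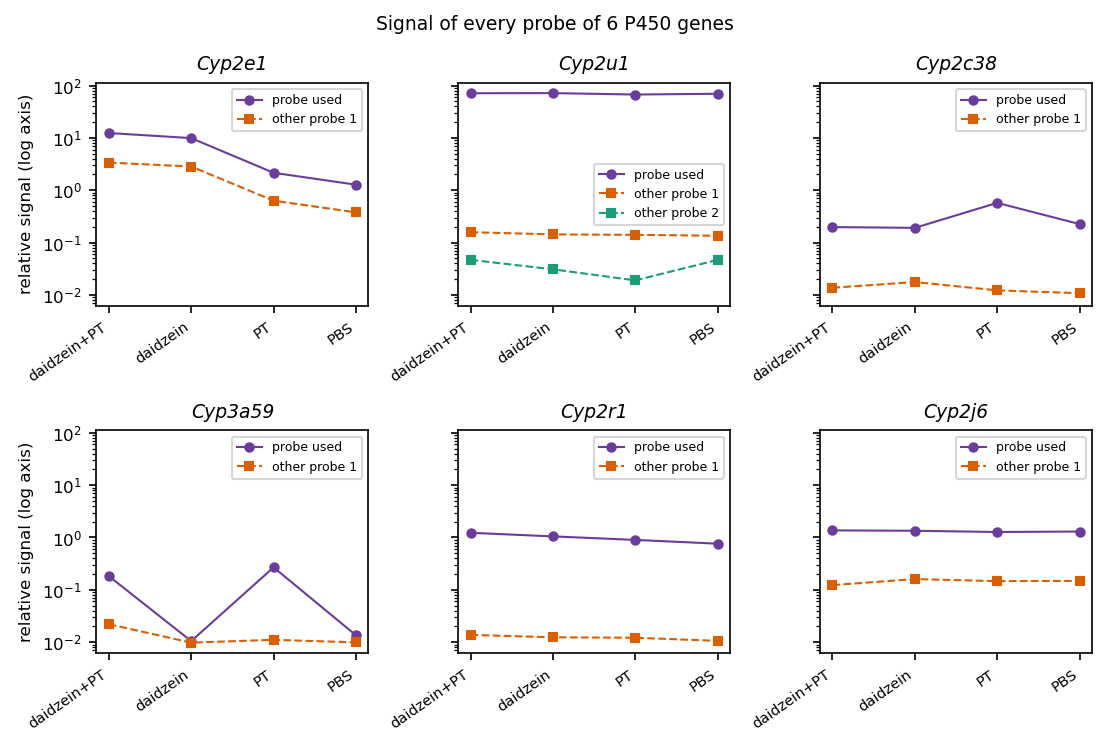
Relative signal (log axis) of every probe of 6 P450 genes on the 4 arrays, with the probe used as circles and the others as squares. The 2 Cyp2e1 probes run in parallel, the Cyp2u1 probes lie far apart, and the second probes of Cyp2c38, Cyp3a59 and Cyp2r1 stay near background on all 4 arrays.

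In the CYP1 family, whose genes are targets of the aryl hydrocarbon receptor, Cyp1b1 was bright and nearly level. This enzyme oxidises estradiol and polycyclic hydrocarbons, and it read 24.9 with daidzein+PT, 26.7 with daidzein, 26.8 with PT and 26.8 with PBS. Its largest log2 difference was -0.11, equal to the SD of the bright class. Cyp1a1 and Cyp1a2 were not well above background on any array.

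Among 6 genes of steroid hormone synthesis, Cyp17a1 and Cyp21a1 were read on all 4 arrays, and Cyp11a1, Cyp11b1, Cyp11b2 and the aromatase Cyp19a1 on none. Cyp17a1, the 17-alpha-hydroxylase, read 7.12 with daidzein+PT, 6.18 with daidzein, 7.16 with PT and 7.29 with PBS. The daidzein array was the lowest by a log2 difference of -0.24 to PBS, and with PT present the same difference was -0.01. Cyp21a1, the steroid 21-hydroxylase, read between 0.198 and 0.24. Of 6 markers of steroidogenic cells on the array, 5 were well above background on none of the arrays, among them Star and Hsd3b1, and Nr5a1 was so on all 4.

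In sterol and bile acid metabolism 3 of 6 genes were read on all 4 arrays. Cyp7b1, the oxysterol 7-alpha-hydroxylase, read 5.81 with daidzein+PT, 6.71 with daidzein, 6.83 with PT and 7.17 with PBS. It was lowest with daidzein+PT, by a log2 difference of -0.30 to PBS, which is more than 2 times the SD of 0.11. Cyp39a1, which acts on 24-hydroxycholesterol, lay between 0.971 and 1.23, and the cholesterol 24-hydroxylase Cyp46a1 between 0.254 and 0.301. Cyp7a1, Cyp8b1 and Cyp27a1 were not well above background on any array.

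Of the vitamin D enzymes, the 25-hydroxylase Cyp2r1 was higher on each treated array than with PBS. It read 1.23 with daidzein+PT, 1.05 with daidzein, 0.899 with PT and 0.761 with PBS, and its interaction was -0.01. The log2 differences were 0.46 for daidzein over PBS, 0.45 for daidzein+PT over PT, 0.24 for PT over PBS and 0.23 for daidzein+PT over daidzein, against an SD of 0.14. A second Cyp2r1 probe was not well above background on any array. The 1-alpha-hydroxylase Cyp27b1 was dim, from 0.072 to 0.119, and the 24-hydroxylase Cyp24a1 was not well above background on any array.

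Cyp26b1, which breaks down retinoic acid, was lower on both daidzein arrays. It read 0.382 with daidzein+PT, 0.411 with daidzein, 0.495 with PT and 0.557 with PBS. The log2 differences of -0.44 for daidzein over PBS and -0.37 for daidzein+PT over PT are close to the SD of 0.33 of the dim class. Cyp26a1 and Cyp26c1 were not well above background on any array.

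In the CYP2 family, Cyp2r1 apart, 16 of 44 genes were detected on 1 or more arrays and 13 on all 4, with the CYP2 genes described above included. Cyp2c55 was lower with daidzein: it read 4.05 with daidzein+PT, 3.80 with daidzein, 4.87 with PT and 5.21 with PBS. Its log2 difference was -0.45 for daidzein over PBS and -0.27 for daidzein+PT over PT, against an SD of 0.14. The products of the CYP2J genes make epoxides from arachidonic acid, and those genes read on all 4 arrays were close to level. Cyp2j5, detected with PBS alone, is described above. Cyp2j6 lay between 1.27 and 1.37, Cyp2j9 between 0.659 and 0.773 and Cyp2j13 between 0.295 and 0.347. Cyp2j8 read 1.36 with daidzein+PT, 1.49 with daidzein, 1.39 with PT and 1.51 with PBS. Cyp2d11 lay between 0.893 and 1.09 and Cyp2t4 between 0.123 and 0.164. In the CYP3 family only Cyp3a13 was read on all 4 arrays, between 0.146 and 0.165.

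The CYP4 family, made up of hydroxylases of fatty acids and leukotrienes, had 9 of 15 genes detected on 1 or more arrays and 7 on all 4. Cyp4v3, the mouse counterpart of human CYP4V2, read 3.98 with daidzein+PT, 3.87 with daidzein, 3.80 with PT and 3.58 with PBS. Cyp4f13 read 3.56 with daidzein+PT, 3.32 with daidzein, 2.81 with PT and 3.07 with PBS, so that the PT array was lowest and daidzein+PT over PT was 0.34 on the log2 scale, above the SD of 0.14. Cyp4f16 (1.54, 1.46, 1.27 and 1.45 on the same arrays) and Cyp4f17 (1.12, 1.12, 0.996 and 1.07) had the same lowest array. Cyp4f18, known as a leukotriene B4 hydroxylase of neutrophils, lay between 0.350 and 0.461. Cyp20a1, a P450 with no settled substrate, lay between 0.942 and 1.06.

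The partners of the P450 enzymes were taken from lists of known function. The 9 redox partners read had 0 genes at 2-fold or more in either direction in any of the 5 comparisons. Over all genes 0.877% to 2.52% were at 2-fold or more higher and 0.0638% to 0.853% lower. With lists this short, a count of 0 here and in the lists that follow does not set them apart from all genes. Medians of the redox partners lay between -0.06 and 0.09. The electron donor Por read 20.2 with daidzein+PT, 15.7 with daidzein, 15.2 with PT and 13.9 with PBS, and Cyb5b, a cytochrome b5, read 12.4, 8.97, 9.84 and 8.32. The 2 brightest were Cyb5r3 (38.5 with daidzein+PT, 38.5 with daidzein, 36.1 with PT and 39.5 with PBS) and Fdx1 (35.9, 33.2, 29.6 and 30.9 on the same arrays). All 12 genes of heme synthesis and breakdown were read on all 4 arrays, with 0 at 2-fold or more. Their median was 0.29 for daidzein+PT over PBS, 0.12 for daidzein over PBS and -0.01 for PT over PBS, beside -0.03, -0.03 and -0.02 for all genes. Alas1, the first and rate-limiting enzyme of heme synthesis in most tissues, read 32.1 with daidzein+PT, 21.9 with daidzein, 19.9 with PT and 17.5 with PBS, a log2 difference of 0.87 for daidzein+PT over PBS. The heme oxygenase Hmox1, with Alas1 among the brightest of the list, read 52.7 with daidzein+PT, 55.0 with daidzein, 42.7 with PT and 48.1 with PBS.

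Of 21 receptors that control P450 genes, 14 were read on all 4 arrays. Pparg, the master regulator of fat cell formation and also 1 of the adipocyte markers, read 32.3 with daidzein+PT, 19.0 with daidzein, 12.2 with PT and 9.28 with PBS. The LXR gene Nr1h3, an oxysterol receptor, read 14.2, 7.80, 4.77 and 3.18 on the same arrays. Both were at 2-fold or more higher in daidzein over PBS and daidzein+PT over PT (2 of 14 in each, against 1.1% and 2.1% of all genes). Both were so too in daidzein+PT over PBS, where Nr1i3 made it 3 of 14, against 2.52%. The constitutive androstane receptor gene Nr1i3, a xenobiotic sensor, was dim: 0.108 with daidzein+PT, 0.0858 with daidzein, 0.129 with PT and 0.0537 with PBS. Its log2 differences were 1.27 for PT over PBS (1 of 14 at 2-fold, against 0.877%), 1.01 for daidzein+PT over PBS and -0.25 for daidzein+PT over PT. The 2 brightest receptors were those for retinoic acid: Rarg read 32.0 with daidzein+PT, 34.4 with daidzein, 40.9 with PT and 41.9 with PBS, and Rara read 25.5, 26.3, 25.9 and 27.1. Rarg was thus lower on both daidzein arrays. The receptors Nr1i2, Nr1h4, Hnf4a, Esr1 and Nr5a2 were not well above background on any array. The aryl hydrocarbon receptor Ahr read 4.08 with daidzein+PT, 4.12 with daidzein, 3.73 with PT and 4.03 with PBS, and of 5 other targets of it read on all 4 arrays 0 were at 2-fold or more. The brightest of those targets were nearly level: Ugt1a6b read 58.1 with daidzein+PT, 57.2 with daidzein, 65.0 with PT and 62.6 with PBS, and Tiparp read 8.52, 9.07, 8.72 and 8.45. The others differed in direction. Nqo1 was at 0.30 for daidzein over PBS and 0.08 for daidzein+PT over PBS, and the dim Ugt1a6a was at -0.14 for daidzein over PBS and 0.79 for daidzein+PT over PT. Aldh3a1 read 5.42 with daidzein+PT, 5.38 with daidzein, 7.74 with PT and 7.84 with PBS. The 4 epoxide hydrolases, which open the epoxides that P450 enzymes form, had 0 genes at 2-fold or more and medians of 0.24 for daidzein+PT over PBS, -0.05 for daidzein over PBS and 0.07 for PT over PBS. The brightest of them were Ephx1 (56.3 with daidzein+PT, 52.7 with daidzein, 54.2 with PT and 53.9 with PBS) and Ephx2 (7.73, 5.98, 7.97 and 6.26 on the same arrays), so that Ephx2 was higher on both PT arrays.

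**Figure D5:**
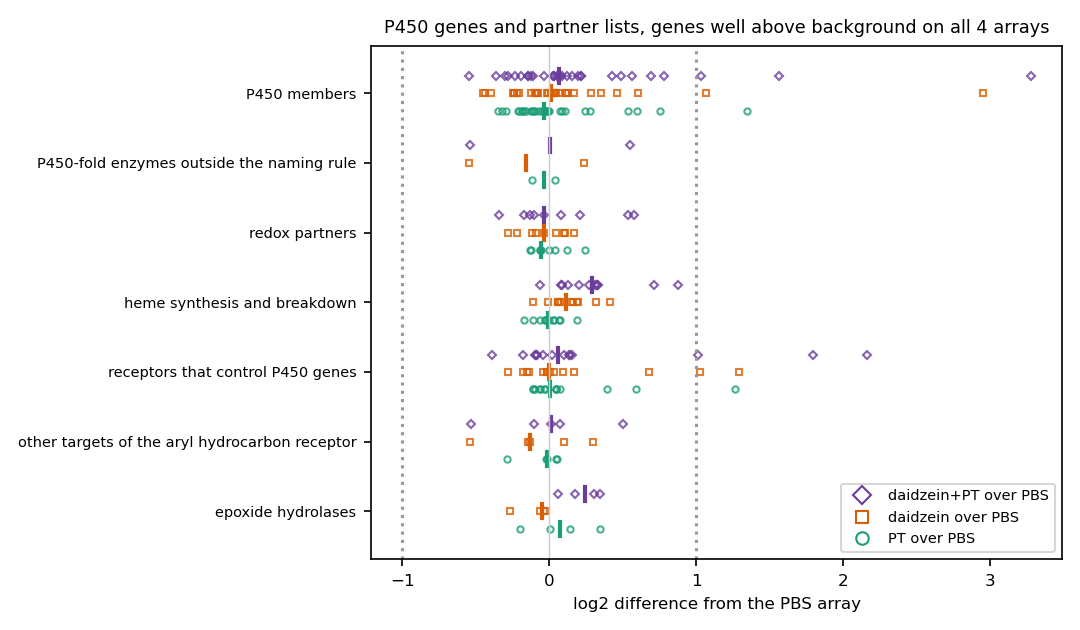
Log2 difference from the PBS array of the P450 genes and of the partner lists (genes well above background on all 4 arrays), with 1 row of symbols for each treated array, bars at the medians and dotted lines at 2-fold. Redox partners, heme genes and epoxide hydrolases lie within 2-fold, while Cyp2e1 lies near 3 with daidzein+PT and with daidzein, and 3 receptors lie at 1.01, 1.80 and 2.16 with daidzein+PT, the first of which lies at 1.27 with PT.

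P450-fold enzymes with other names were read beside the family. Ptgis, the prostacyclin synthase, was lower on both daidzein arrays: 14.9 with daidzein+PT and 14.8 with daidzein, against 22.3 with PT and 21.7 with PBS. Its log2 differences were -0.55 for daidzein over PBS and -0.58 for daidzein+PT over PT. Cyp51, the sterol 14-demethylase of cholesterol synthesis, read 0.532 with daidzein+PT, 0.429 with daidzein, 0.336 with PT and 0.364 with PBS. Tbxas1, the thromboxane synthase, was well above background only with PT (0.0767).

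Stretches before the gene start were searched for motifs. RefSeq start positions on build GRCm38.p6 were held for 29 of the 39 genes, and the 250 bases before the start are printed for Cyp2e1 and Cyp2f2, the 2 genes at 2-fold or more higher in daidzein over PBS, with matches to the motifs searched in capitals.
Cyp2e1, chr7:140763569-140763818, plus strand: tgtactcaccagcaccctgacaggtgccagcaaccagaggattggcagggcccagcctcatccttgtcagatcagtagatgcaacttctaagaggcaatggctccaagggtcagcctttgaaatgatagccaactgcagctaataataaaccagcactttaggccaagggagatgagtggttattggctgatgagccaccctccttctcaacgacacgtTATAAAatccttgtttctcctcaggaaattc
Cyp2f2, chr7:27119705-27119954, plus strand: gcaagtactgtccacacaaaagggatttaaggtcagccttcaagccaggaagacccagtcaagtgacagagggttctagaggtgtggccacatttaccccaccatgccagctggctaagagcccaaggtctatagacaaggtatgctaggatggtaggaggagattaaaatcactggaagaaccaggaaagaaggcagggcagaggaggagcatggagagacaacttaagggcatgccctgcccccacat

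Both strands were searched for the TATA box letters TATAAA, for GCGTG, the core of the xenobiotic response element, for the C/EBP letters TTGCNNAA, and for a DR1 repeat and an HNF1 site. In Cyp2e1 the TATA box letters started 31 bases before the gene start, and Cyp2f2 and Cyp4b1 held none of the 5 motifs. Some genes have several starts, and a gene was counted when any of its starts matched. The TATA box letters were found for 10 of the 29 genes, against 14.3% of 27025 genes with a start in the table, and the xenobiotic response core for 8 of 29, among them Cyp1b1, against 30.9%. The C/EBP letters were found for 4 of 29, against 10.8%, DR1 for 0 of 29, against 0.0407%, and HNF1 for 0 of 29, against 0.0111%. A match is a description of letters in this window.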

How the data were processed

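RNA of 3T3-L1 adipocytes was hybridised to 1 Agilent array per group (daidzein+PT, daidzein, PT and PBS), per the labels. Per the file headers, each deposited intensity was background-subtracted and detrended by Feature Extraction 10.7.1.1 (9.5.1.1 in the submitters' processing notes), and raw mean and local background intensities and flags stand beside it. The authors' series table holds intensities whose sorted columns differed by at most 0.0474%, and was an alternative.

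Control spots and outlier spots (106 to 173 non-control spots per array) were left out. Spots of a probe were averaged as log2 values, from which each array's 75th percentile was then subtracted (limma 3.58.1 for the normexp, offset 50, and quantile alternatives; Python 3.11.15 otherwise). A gene entered a comparison when well above background on both arrays. The software's own error estimate for the 31 genes read on all 4 arrays was 10.0% to 21.1% of a spot's signal. Of 39 accessions, 37 were held in a RefSeq table, 36 with the same symbol. Counting was tested on simulated arrays with genes of known fold, which checks the counting and not the differences found here. A protein comparison was planned and not made. Genes described in full are those at 2-fold, measured or as a bound, among genes detected on 2 or more arrays, and the 10 brightest; from the partner lists those at 2-fold and the 2 brightest. Other genes given with 4 values were chosen after their values were seen. The members and lists were chosen with earlier results of these data known.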

Additional observations from a re-analysis of the deposited data

Results flagged for a closer look

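Cyp2c70 was singled out because PT pointed in opposite directions in its 2 pairs: the log2 difference was -0.35 for PT over PBS, about the SD of 0.33, and 0.68 for daidzein+PT over daidzein. With normexp PT over PBS was at -0.28, and the difference between them was not tested. The second probe of Cyp2e1, which enters none of the comparisons, lay well above the PBS array, with log2 differences of 2.91 for daidzein over PBS and 3.16 for daidzein+PT over PBS.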

How the results depend on the processing

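No paired test was run, because each group has 1 array and the groups share no more than 1 replicate number. The 2 pairs of arrays that measure each treatment stand in the report. Quantile normalization, subtraction of the median of detected probes and the deposited series table left every count of P450 genes at 2-fold within 1.5 times, and no difference of 2-fold or more changed sign under any of the 6 alternatives. With normexp 0 genes were higher in PT over PBS, 1 higher and 0 lower in daidzein+PT over PT, and 0 higher in daidzein+PT over daidzein. With the mean over probes 0 were higher in PT over PBS and 0 lower in daidzein+PT over PT. With no filter on dim probes all 88 genes entered, and the counts higher and lower were 10 and 7 for daidzein over PBS, 8 and 4 for PT over PBS, 9 and 3 for daidzein+PT over PBS, 7 and 4 for daidzein+PT over PT, and 7 and 3 for daidzein+PT over daidzein; this setting adds genes that are near background. Over all genes normexp gave 116 higher and 16 lower for daidzein over PBS (main 208 and 70), and 42 and 1 for PT over PBS (main 165 and 12). Of 156 differences of single genes, 15 moved by more than the SD with normexp and 25 with the mean over probes. Cyp2e1 was at 2.78 for daidzein over PBS with normexp. The normexp offset of 50 by itself shrinks the differences of dim probes. The mean over probes takes in probes that were not well above background. Signal near background limits the dim class.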
